A study of Homo sapiens with 4 samples.

Results

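The genes described here encode the kinases, docking proteins and adaptors that pass signals from integrin adhesions into the cell. They are PTK2 (FAK), PTK2B (PYK2), SRC, FYN, YES1, BCAR1 (p130Cas), NEDD9 (HEF1), PXN (paxillin), CRK and CRKL. The 10 genes were taken by name from 60721 genes in the count table, and all 10 were abundant enough to be tested. Their transcripts were counted by RNA sequencing of HS578T cells, a long-established human breast carcinoma line. Every culture received GFP by co-transfection, together with 1.6 µM of either siRNA against TLN1 (siTLN1) or a scrambled control RNA (SCR). RNA was collected after 48 h, and each group held 2 libraries, called library a and library b here. All 4 libraries come from 1 cell line, so they describe this line only.

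When integrins bind the matrix, talin couples them to actin and a signalling layer forms above the membrane. FAK is recruited there and phosphorylates itself, which creates a docking site for SRC-family kinases, and the pair then phosphorylates paxillin and p130Cas. Phosphorylated p130Cas and paxillin bind the adaptors CRK and CRKL, which bring in exchange factors for the small GTPases RAC1 and RAP1. Most of this regulation acts on the proteins, so transcript levels describe how much message is present and not how active the pathway is.

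Total counts per library lay between 31854322 and 46353297. TLN1, which encodes talin-1, was at 868 and 874 CPM (counts scaled to a common library size) with SCR and at 51.9 and 44.8 CPM with siTLN1, so the target was low in both libraries labelled siTLN1. The log2 fold change of −4.17 had a standard error of 0.11 (edgeR's quasi-likelihood test, Benjamini-Hochberg adjusted p 3.89e-13). The labels call the cells epithelial. The mesenchymal transcripts VIM (3860 CPM), FN1 (24925 CPM) and AXL (1481 CPM) were abundant in SCR and the keratin KRT18 was at 117 CPM, whereas the epithelial marker EPCAM had at most 6 counts in any library, as did KRT19. Of 10 markers of blood, endothelial, liver, heart, neural crest and glial cells, the highest was PECAM1, at 4.11 CPM in SCR. Within both groups, replicate libraries varied beyond sampling noise.

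The first comparison asked which members differed between siTLN1 and SCR. One of the 10, PTK2, rose, and none fell. DESeq2 and limma-trend without the replicate number also called PTK2 and no other member. Across all 16137 tested genes, 6.07% had an adjusted p under 0.05 and 2.30% did so with a higher level in siTLN1, so a count of 1 in 10 lies near the background. At an unadjusted p under 0.05 there were 2 members, PTK2 and BCAR1, against 19.8% of all genes. The libraries of the groups did not overlap for 6 members, against 48.4% of all tested genes. The median log2 fold change of the members was −0.020, with 4 above 0 and 6 below, beside 0.0033 over all tested genes.

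**Figure D1:**
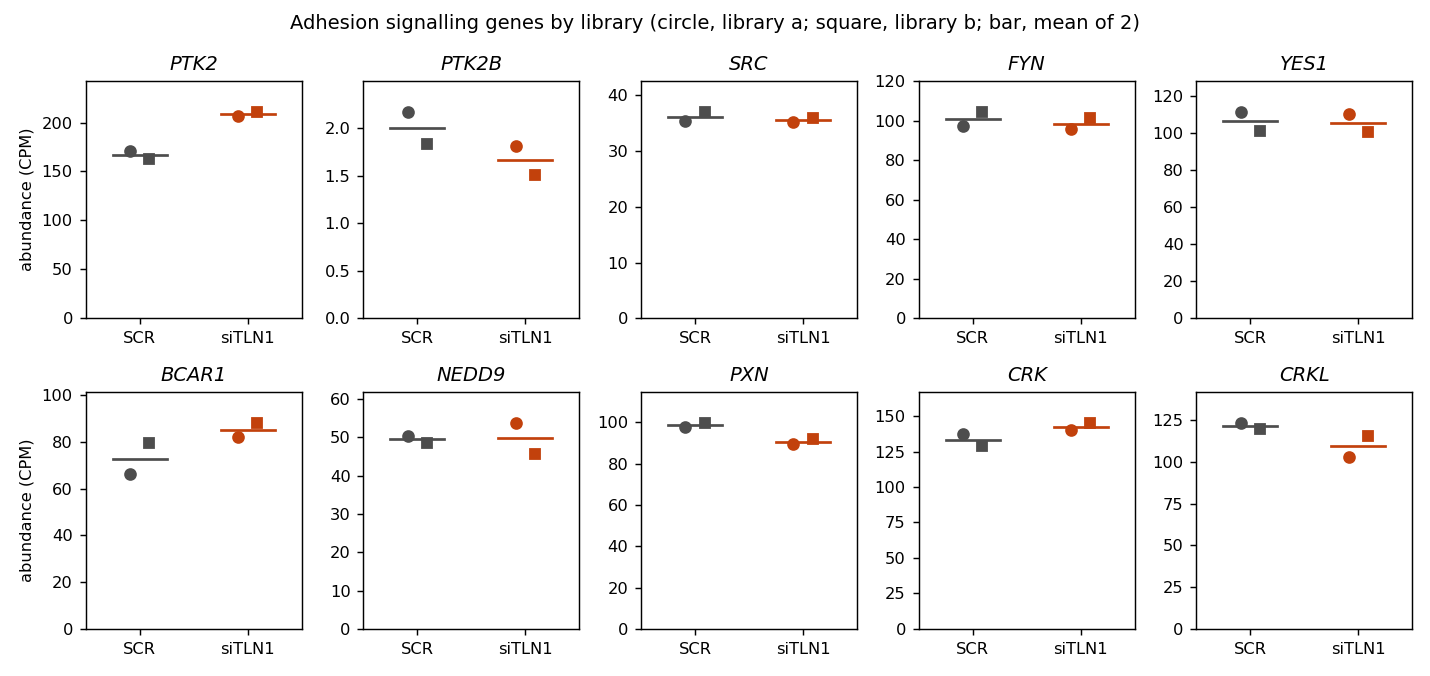
Abundance of each of the 10 genes in CPM (vertical axes from 0), with SCR in grey and siTLN1 in orange, circles for library a, squares for library b and bars for the mean of 2. PTK2 stands apart most clearly, at 171 and 163 CPM in SCR and 207 and 211 CPM in siTLN1, whereas the points of SRC, FYN, YES1 and NEDD9 interleave.

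The FAK family holds the kinases FAK and PYK2. PTK2 (ENSG00000169398.19; GRCh38, chromosome 8, 140657900 to 141002216, minus strand) encodes FAK, the tyrosine kinase that starts signalling at focal adhesions. It was at 171 and 163 CPM in SCR and at 207 and 211 CPM in siTLN1. Both siTLN1 libraries lay above both SCR libraries, and the gap between the groups was wider than the spread within either. The log2 fold change was 0.32 (standard error 0.09), a rise of 25.1% with a 95% interval from 9.53% to 42.9% (edgeR's quasi-likelihood test, adjusted p 0.0433). PTK2 stood at rank 922 by p value among the 980 genes past the threshold. Its call was lost when low counts were not filtered. The unadjusted p of the same test was then 0.00173, against 0.00247 with the filter, but adjustment over 32708 genes gave 0.0684. The call was also lost when any 1 of the 4 libraries was left out. The adjusted p then ran from 0.0758 without SCR library a to 0.223 without SCR library b, and the log2 fold change stayed between 0.29 and 0.36.

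PTK2B (ENSG00000120899.18; chromosome 8, 27311482 to 27459391, plus strand) encodes PYK2, the calcium-responsive relative of FAK. Its raw counts were 69 and 64 in SCR and 66 and 71 in siTLN1, which correspond to 2.17 and 1.84 CPM against 1.81 and 1.51 CPM. The siTLN1 libraries lay lower, with SCR library b and siTLN1 library a almost equal. Its log2 fold change was −0.28 (standard error 0.23), and the 95% interval of the change ran from −40.9% to 15.2% (adjusted p 0.557).

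The SRC family is represented by its broadly expressed members. SRC (ENSG00000197122.11; chromosome 20, 37344685 to 37406050, plus strand) partners FAK at adhesions and was at 35.4 and 37.0 CPM in SCR and 35.2 and 35.9 CPM in siTLN1. FYN (ENSG00000010810.17; chromosome 6, 111660332 to 111873452, minus strand) was at 97.4 and 104.5 CPM in SCR and 95.8 and 101.4 CPM in siTLN1. YES1 (ENSG00000176105.14; chromosome 18, 721588 to 812546, minus strand) was at 111.4 and 101.3 CPM in SCR and 110.2 and 100.6 CPM in siTLN1. For all 3 kinases the groups overlapped, and the 2 libraries of a group differed from each other by more than the group means did. The log2 fold changes were −0.028 for SRC, −0.034 for FYN and −0.013 for YES1, each with a standard error of 0.09 to 0.10 and an adjusted p of at least 0.894. The 95% intervals of the change were −15.0% to 13.1% for SRC, −14.8% to 11.9% for FYN and −13.9% to 14.1% for YES1, so a rise as large as the fitted rise of PTK2 lies outside each of them. For YES1, 3.02% of exon bases also lie in a gene on the opposite strand.

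The CAS family supplies the docking proteins that are stretched and phosphorylated at adhesions. BCAR1 (ENSG00000050820.17; chromosome 16, 75228181 to 75268053, minus strand) encodes p130Cas and was at 66.3 and 79.3 CPM in SCR and 82.0 and 88.2 CPM in siTLN1. The siTLN1 libraries were higher, but the SCR libraries lay far apart and SCR library b came close to siTLN1 library a. Its log2 fold change was 0.22 (standard error 0.10), and the interval of the change ran from 0.349% to 35.9%. The unadjusted p was 0.0455 and the adjusted p 0.240, so BCAR1 did not pass in this fit, which does not use the replicate number. Without SCR library a the log2 fold change was 0.10, and without SCR library b it was 0.36. Another gene on the same strand shares 8.57% of its exon bases, and reads there cannot be assigned to 1 of the genes. NEDD9 (ENSG00000111859.17; chromosome 6, 11183298 to 11382348, minus strand) encodes the relative HEF1 and was at 50.5 and 48.5 CPM in SCR and 53.9 and 45.6 CPM in siTLN1. The SCR values lay between the siTLN1 values, and the log2 fold change was 0.0065 (standard error 0.10, adjusted p 0.987, interval −13.7% to 16.9%).

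PXN (ENSG00000089159.16; chromosome 12, 120210439 to 120265771, minus strand) encodes paxillin, the scaffold that FAK and SRC phosphorylate. It was at 98.0 and 99.9 CPM in SCR and 89.6 and 91.9 CPM in siTLN1. Both siTLN1 libraries lay below both SCR libraries and the replicates were close together. The log2 fold change was −0.12 (standard error 0.09), and the interval of the change ran from −19.7% to 4.83% (adjusted p 0.498), so PXN did not pass. Genes on the opposite strand, among them PXN-AS1, share 26.7% of its exon bases, and the counting used no strand option. The level of PXN is therefore uncertain, because reads in those bases could not be told apart by strand.

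The CRK family holds the adaptors that bind phosphorylated p130Cas and paxillin. CRK (ENSG00000167193.8; chromosome 17, 1420689 to 1463162, minus strand) was at 137.7 and 128.9 CPM in SCR and 139.9 and 145.3 CPM in siTLN1. CRKL (ENSG00000099942.13; chromosome 22, 20917407 to 20953747, plus strand) was at 123.3 and 119.8 CPM in SCR and 103.0 and 115.2 CPM in siTLN1. The siTLN1 libraries lay above the SCR libraries for CRK and below them for CRKL, without overlap in either gene. Neither gene passed: the log2 fold change was 0.10 for CRK (standard error 0.09, adjusted p 0.620) and −0.16 for CRKL (standard error 0.09, adjusted p 0.395). The interval of the change was −6.43% to 22.4% for CRK and −21.9% to 3.09% for CRKL.

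**Figure D2:**
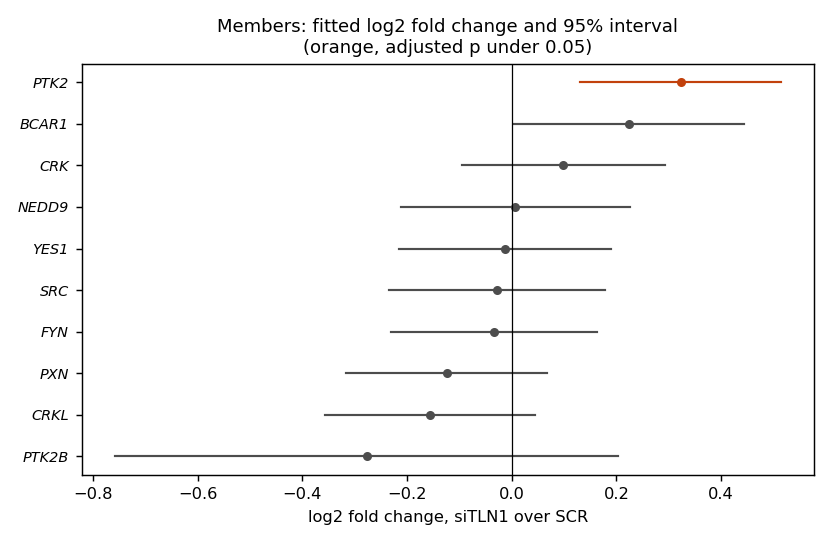
Fitted log2 fold change of siTLN1 over SCR for the 10 members (points) with 95% intervals (lines), in orange where the adjusted p was under 0.05. PTK2 is the only orange entry, at 0.32, and the widest interval belongs to PTK2B, the member with the fewest counts.

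CRKL was the only member whose 3′ UTR held the word GACAACA. This 7-base word was picked from these same data, because genes that hold it in the 3′ UTR had lower fold changes, so it is given as a description with no test. Among 11955 tested genes with a 3′ UTR of at least 100 bases in GENCODE 29 (TLN1 left out), 940 (7.86%) held it. Their median log2 fold change was −0.098, against 0.014 for the 11015 genes without it, and their 3′ UTRs were longer, with a median of 2964 against 1018 bases. The 3′ UTR of CRKL holds 2 copies, which start at bases 424 and 1054 of its 3904 bases. Both are printed with their surroundings, from transcript ENST00000354336.7 of GENCODE 29 on GRCh38, plus strand, with the word in capitals.
CRKL site at chr22:20950258-20950287: gcttttctttgGACAACAggaagtgaacct
CRKL site at chr22:20950888-20950917: gccatgtagcaGACAACAcacaaaataatg
PTK2B held 1 copy in its coding sequence, and the chosen transcripts of the other 8 members, CRK included, held none in coding sequence or 3′ UTR. None of the 11 annotated protein-coding transcripts of PXN held it either, although the one with the longest coding sequence has no annotated 3′ UTR. The sequence of the siRNA was not used here, and the part of these sites in the level of CRKL was not tested.

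The second comparison set the levels of the members side by side, as RPKM (CPM per kilobase of exon), because counts of different genes can be compared only per length. The exon bases are the union over all annotated transcripts, so genes with many unused exons appear lower. CRK was the highest member at 32.8 ± 1.53 RPKM (SD, n = 2) in SCR, followed by CRKL at 22.8 ± 0.463 and YES1 at 20.9 ± 1.40 RPKM. FYN (13.6 ± 0.685 RPKM), PXN (13.3 ± 0.183) and PTK2 (12.1 ± 0.398) formed the middle of the order. BCAR1 (7.92 ± 0.998 RPKM), SRC (5.60 ± 0.180) and NEDD9 (4.78 ± 0.132) came next. PTK2B was far below the others at 0.255 ± 0.0300 RPKM, and NEDD9, its neighbour in the order, was 18.7 times as high. Of the 9 pairs of neighbours in SCR, FYN and PXN overlapped between libraries and the other 8 pairs did not. CRK stood at percentile 92.3 of all tested genes by RPKM, PTK2 at 78.3, SRC at 61.8 and PTK2B at 14.2.

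In siTLN1 the order differed in the ranks of 5 members. PTK2, at 15.2 ± 0.211 RPKM (SD, n = 2), moved from the sixth to the fourth place, above FYN at 13.3 ± 0.536 and PXN at 12.2 ± 0.218 RPKM. CRKL and YES1 exchanged places at 20.4 ± 1.62 and 20.7 ± 1.33 RPKM, but their libraries overlapped. CRK stayed highest at 35.1 ± 0.945 RPKM and PTK2B lowest at 0.211 ± 0.0272 RPKM. Summed over the 10 members, the level was 134 ± 1.91 RPKM in SCR and 137 ± 2.16 RPKM in siTLN1, and the libraries overlapped. In bulk samples such as these, fewer cells that express a gene and less RNA per cell cannot be told apart.

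**Figure D3:**
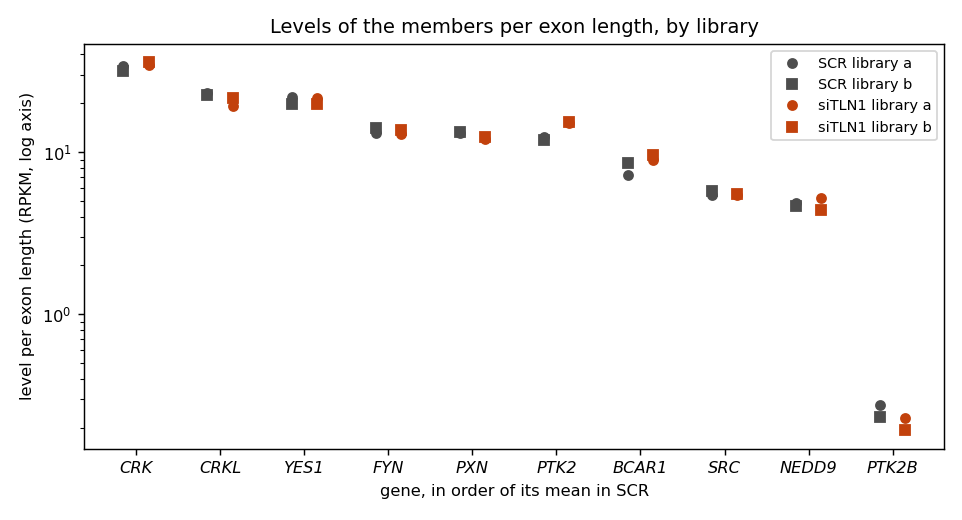
Level of each member per exon length (RPKM, log axis) in each library, with genes in the order of their SCR mean, SCR in grey, siTLN1 in orange, circles for library a and squares for library b. CRK leads at 32.8 RPKM in SCR and PTK2B stands far below NEDD9 (4.78 RPKM) at 0.255 RPKM.

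The third comparison asked how each family was divided among the members, as each gene's share of the RPKM summed over those members. Relatives outside the 10 members were left out of these sums. Among them were LYN of the SRC family (4.59 RPKM in SCR) and EFS and CASS4 of the CAS family (3.53 and 0.694 RPKM in SCR). YES1 held the largest share of the 3 SRC-family kinases, at 54.0% and 50.0% in SCR and 54.1% and 50.6% in siTLN1. FYN held 34.0% ± 2.16 (SD, n = 2) in SCR and 33.7% ± 1.97 in siTLN1, and SRC held 14.0% ± 0.636 and 13.9% ± 0.451. These shares moved by less than the spread between replicates. PTK2 made up 97.8% and 98.1% of the FAK family in SCR and 98.5% and 98.8% in siTLN1. BCAR1 made up 59.7% and 64.8% of the sum of BCAR1 and NEDD9 in SCR and 63.1% and 68.5% in siTLN1, with overlap between groups. CRK made up 59.5% and 58.6% of the CRK family in SCR and 64.1% and 62.4% in siTLN1, a difference of 4.23 percentage points without overlap. The summed level of CRK and CRKL was 55.6 ± 1.99 RPKM in SCR and 55.5 ± 2.56 RPKM in siTLN1. With 2 libraries per group, the smallest p that an exact two-sided permutation test can give is 0.333, which the shares of CRK and of PTK2 both reached, so no share could pass a threshold.

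**Figure D4:**
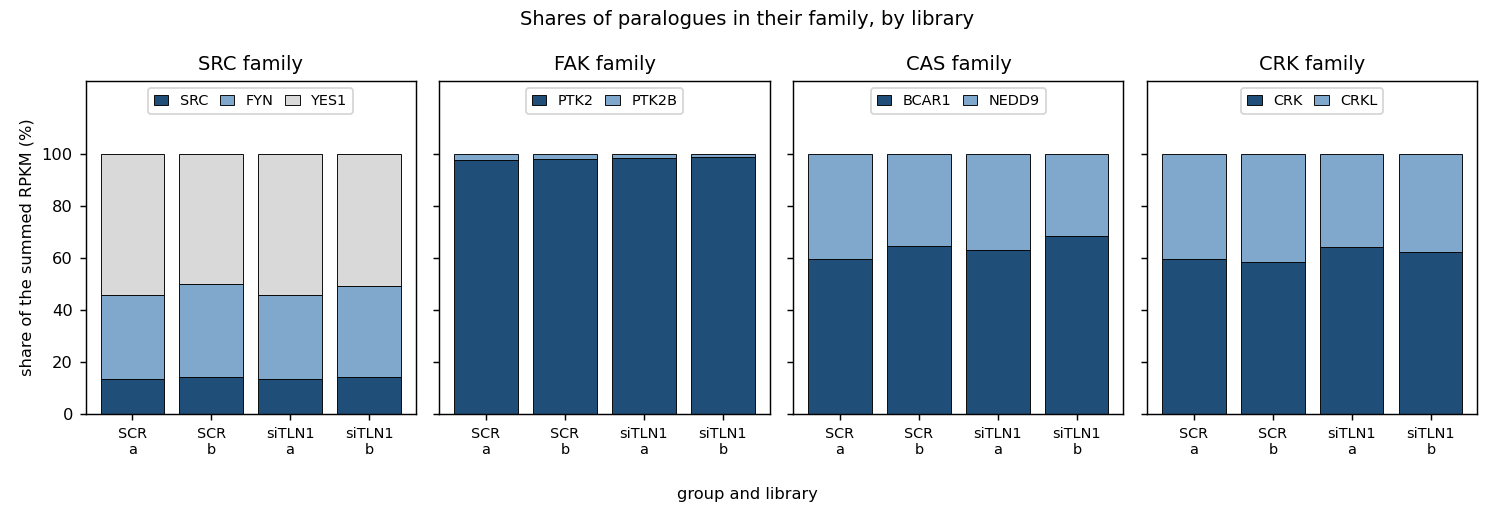
Share of each member in the RPKM summed over the members of its family. Stacked bars run from 0 to 100%, with 1 bar per library and groups SCR and siTLN1 named under the bars. The CRK share is 59.5% and 58.6% in SCR and 64.1% and 62.4% in siTLN1. YES1 keeps between 50.0% and 54.1% of the sum of SRC, FYN and YES1 in all 4 libraries.

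The last comparison took 61 partners of these proteins, of which 50 were tested and 11 had at most 15 counts in any library. One rose and 1 fell, beside the background of 6.07%, and 12 had an unadjusted p under 0.05 against 19.8% of all genes. The median log2 fold change was −0.0050, with 25 genes above 0 and 25 below.

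Among 16 tested SRC-family kinases, regulators and substrates, CBLB rose and none fell. CBLB encodes the E3 ubiquitin ligase CBL-B, which targets activated tyrosine kinases and their adaptors. It was at 111 and 106 CPM in SCR and at 156 and 146 CPM in siTLN1, with both siTLN1 libraries well above both SCR libraries. The log2 fold change was 0.48 (standard error 0.09, adjusted p 0.00501), a rise of 39.1%. Its call was lost without siTLN1 library a (log2 fold change 0.43, adjusted p 0.0879). CBL, its relative, was at 73.5 CPM in SCR and 91.3 CPM in siTLN1. It did not pass edgeR's quasi-likelihood test with all 4 libraries (log2 fold change 0.31, adjusted p 0.0877). LYN, a further SRC-family kinase, was at 29.5 and 27.2 CPM in SCR and 23.0 and 22.0 CPM in siTLN1 and did not pass either (log2 fold change −0.33, adjusted p 0.0719). CSK, the kinase that switches SRC off, had a log2 fold change of 0.15 (adjusted p 0.428). LCK, FGR and BLK, SRC-family kinases of blood cells, were too low to be tested. SRCIN1, which encodes an inhibitor of SRC, had 32 and 27 counts in SCR and 13 and 18 counts in siTLN1, without overlap in CPM. SRCIN1 lay nearest the threshold of the genes in this list that did not pass (log2 fold change −1.25, standard error 0.36, adjusted p 0.0511), and it did pass with total counts only. CBL, LYN, CSK and SRCIN1 were chosen after their values were seen.

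Among 14 tested partners of the CAS and CRK proteins, SHC1 fell and none rose. SHC1 encodes an adaptor that carries signals from tyrosine kinases to GRB2 and RAS. It was at 212 and 223 CPM in SCR and 166 and 173 CPM in siTLN1, and the groups were far apart relative to their spread. The log2 fold change was −0.36 (standard error 0.09, adjusted p 0.0266), a change of −22.0%. Its call was lost when low counts were not filtered (adjusted p 0.0612), and without SCR library b (0.131), siTLN1 library a (0.240) or siTLN1 library b (0.0784). Exons of other genes cover 7.51% of its exon bases on the opposite strand and 7.72% on the same strand, so its count is uncertain. RAC1, the GTPase downstream of the CRK and DOCK1 module, was at 297 CPM in both groups (log2 fold change 0.0041, adjusted p 0.990). It was chosen after its values were seen and does not stand for the list. Of the 14 genes, 6 had a log2 fold change above 0 and 8 below, with a median of −0.13.

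Of 20 tested partners of paxillin and FAK, none passed edgeR's quasi-likelihood test, and 2 had an unadjusted p under 0.05. DESeq2, and limma-trend without the replicate number, called 0 of them as well. The paxillin relatives TGFB1I1 (HIC-5) and LPXN (leupaxin) had log2 fold changes of 0.014 and −0.19, with adjusted p of 0.958 and 0.289, and were named as paralogues after their values were seen. LPXN was at 344 and 311 CPM in SCR and 272 and 301 CPM in siTLN1.

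**Figure D5:**
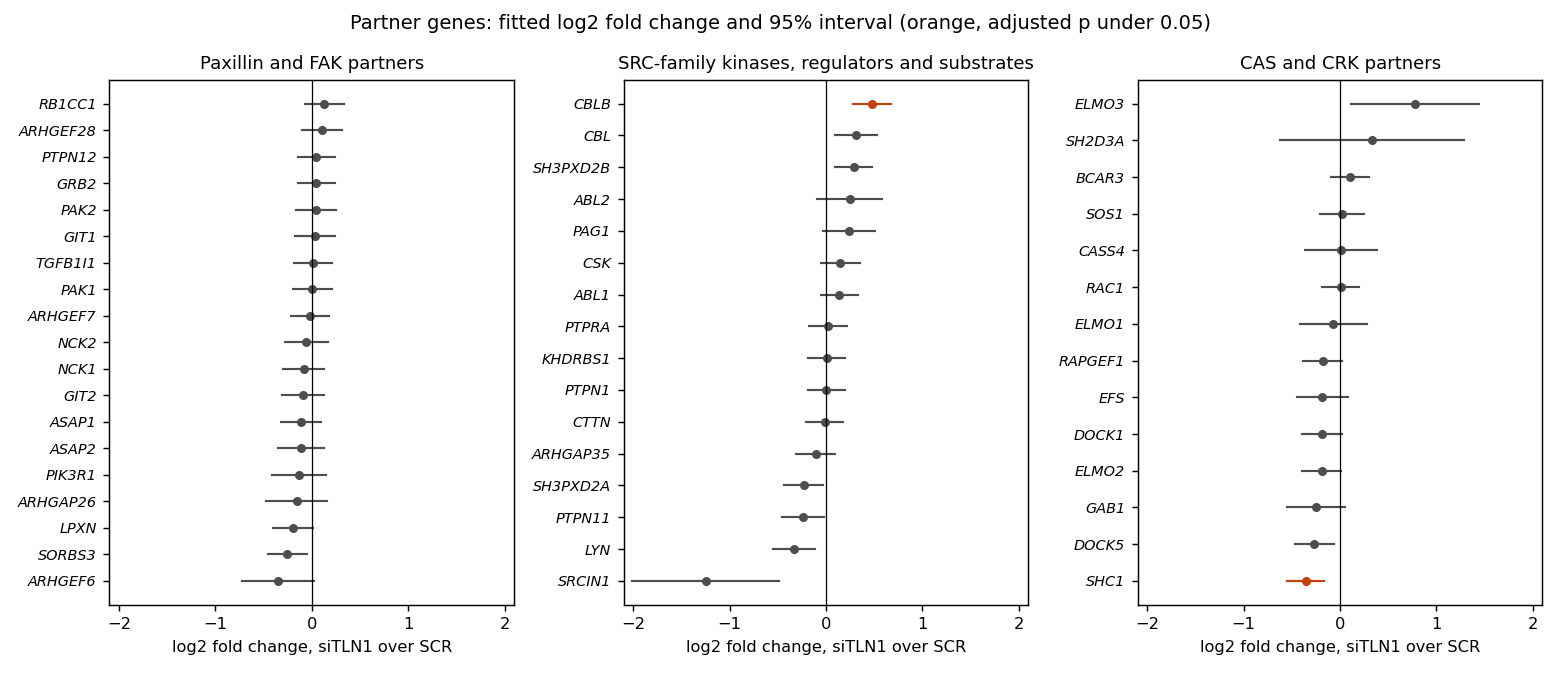
Fitted log2 fold change of siTLN1 over SCR (points) with 95% intervals (lines) for 49 of the 50 tested partners, in 3 panels by role, in orange where the adjusted p was under 0.05. CBLB (0.48) and SHC1 (−0.36) are the orange entries, and wide intervals belong to genes of few counts such as SRCIN1 and ELMO3.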

How the data were processed

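Per the file headers, the deposited gene counts are unscaled and come from featureCounts 2.0.0 (paired reads, GENCODE 33) run without a strand option. STAR 2.7.9a, edgeR 3.34.1 and GRCh38 are named in the submitters' processing notes. Exon bases per gene, in a unit other than counts, come from the same deposited table. Its 4 columns name the group and were mapped to groups only. The authors also deposited log2 CPM values with replicate numbers, whose making the labels do not describe. Sorted within each gene, 100% of them matched log2 CPM from edgeR with TMM scaling to 6 decimals.

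Of 60721 genes, 16137 passed filterByExpr (minimum count 10, minimum total count 15). Groups were compared with edgeR 4.0.16 in R 4.3.3 (TMM scaling, glmQLFit robust, glmQLFTest), with Benjamini-Hochberg adjustment over all tested genes and a threshold of 0.05. Intervals of 95% follow from the fit. The biological coefficient of variation was 0.0805, so 2 libraries per group, rather than depth, limited precision for abundant genes. Alternatives were scaling by RLE or by total counts alone, leaving out the filter, DESeq2 1.42.0, limma-trend (limma 3.58.1) on the deposited log2 CPM with and without the replicate number, and each library left out. The fits were also run on simulated counts, drawn independently for each library, and the outcome is not reported here. Words and exon overlaps were read with Python 3.11.15 from GENCODE 29 (1 protein-coding transcript per gene, that with the longest coding sequence) and from the exons of the count table.

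The members and lists were chosen with earlier results of these data known. Named genes are the members, TLN1, up to 6 partners per list past the threshold or else the 1 with the smallest p, and the 3 genes closest to the member with the smallest p. One gene that this rule selects is not reported here. The labels call the libraries of a group biological replicates.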

Additional observations from a re-analysis of the deposited data

How the results depend on the processing

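PTK2 kept its direction under every alternative, and it lost its side of the threshold with no filter on low counts (log2 fold change 0.34) and in the 4 fits that each left out 1 library (0.29 to 0.36), where a lone library is assumed to vary like the other group. The count of changed members was therefore 0 with no filter, 0 in each of those 4 fits and 1 in the other fits without the replicate number. By edgeR's quasi-likelihood test with no filter, 2 members had an unadjusted p under 0.05. Changed partners numbered 2, but 1 with no filter, 3 with total counts only (SRCIN1 in addition to CBLB and SHC1) and 0 to 4 with a library left out. Changed genes overall numbered 980, from 663 to 1253 under the alternatives with all 4 libraries and no replicate number, and from 347 without siTLN1 library a to 1116 without SCR library a. With a library left out, the log2 fold changes of SRC (−0.059 to 0.0054), FYN (−0.083 to 0.018), YES1 (−0.080 to 0.059) and NEDD9 (−0.12 to 0.13) took both signs.

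No label says that equal replicate numbers mark a shared preparation. The names of the count columns carry a number that recurs in 1 column of each group, and what it marks is not stated, so the letters a and b follow it without being used as pairs. Across genes, the difference of replicate 1 from 2 in SCR correlated with that in siTLN1 at 0.19, and at 0.53 among genes of 5 CPM or more. The difference of library a from b gave 0.19 and 0.54. Over all 16137 genes the value was the same to 6 decimals (0.189753), so the letters and the replicate numbers pair the libraries alike. A replicate block in limma-trend gave 3645 changed genes and 18 changed partners, CBL, LYN and SRCIN1 among them. It also gave 2 changed members, PTK2 (log2 fold change 0.32, adjusted p 1.64e-05) and BCAR1 (log2 fold change 0.23, adjusted p 0.00461). 

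Shares computed from counts without length correction were 14.9% and 14.8% for SRC (SCR and siTLN1), 41.5% and 41.2% for FYN, 43.7% and 44.0% for YES1, 98.8% and 99.2% for PTK2 and 52.3% and 56.7% for CRK, so FYN and YES1 are then nearly equal. For PTK2B, with under 100 counts per library, depth limits what can be seen.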

Other observations

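The 3 genes whose values over the 4 libraries lay closest to those of PTK2, among 10475 genes of at least 5 CPM, were CLP1, SGPL1 and RNF114. The measure was the Euclidean distance between log2 CPM values centred on each gene's mean, and it was 0.0189 for CLP1, 0.0285 for SGPL1 and 0.0311 for RNF114. CLP1, which encodes an RNA kinase of 3′ end formation, was at 18.2 and 17.5 CPM in SCR and 21.8 and 22.3 CPM in siTLN1. SGPL1, the sphingosine-1-phosphate lyase, was at 66.9 and 65.0 CPM in SCR and 80.4 and 82.2 CPM in siTLN1. RNF114, a ubiquitin ligase, was at 87.7 and 83.8 CPM in SCR and 103.8 and 108.7 CPM in siTLN1. Their log2 fold changes were 0.31, 0.30 and 0.31, close to the 0.32 of PTK2, but none passed edgeR's quasi-likelihood test (adjusted p 0.104, 0.0649 and 0.0586). With 4 libraries, such closeness is a description of these values only.

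The word GACAACA stood in the 3′ UTR of the chosen transcript for 6 of the 50 tested partners (12%, beside 7.86% of all genes searched). These were ARHGAP26, DOCK5, GAB1, LYN, PAG1 and SH3PXD2A, named after their values were seen. Their 3′ UTRs had 462 bases in LYN and from 4418 (DOCK5) to 8734 (PAG1) bases in the other 5. Genes with the word had longer 3′ UTRs over all genes searched, and the part of length in this split was not tested. The word was picked from these same fold changes, so the split of the partners by it is a description only. The median log2 fold change of the 6 was −0.24, with 5 of 6 below 0, beside a median of 0.0045 for the other partners. Over all genes searched that hold the word, the median was −0.098. PAG1, the adaptor that recruits CSK, was the exception at 0.24 (adjusted p 0.329), and none of the 6 passed edgeR's quasi-likelihood test, DESeq2 or limma-trend without the replicate number, with 3 of them at an unadjusted p under 0.05 in edgeR, beside 19.8% of all tested genes. CBLB and SHC1 hold no copy in any of their annotated protein-coding transcripts. PTPN11 (log2 fold change −0.24) holds the word in the 3′ UTR of 1 of its 6 transcripts. Its chosen transcript has no annotated 3′ UTR, so it was counted with the other partners. The genes searched had a 3′ UTR of at least 100 bases, a limit that was not set for the partners.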
